A study of Mus musculus with 57 samples.

Results

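The 9 genes described here are Ppargc1a and Ppargc1b, which encode the PGC-1 coactivators, the nuclear receptor genes Esrra, Esrrb, Esrrg, Ppara and Ppard, and the transcription factor genes Tfam and Nrf1. They were taken by name from the mm10 RefSeq annotation. They made up 9 of 38366 annotated genes and held 28 of 50800 promoters, a promoter being an annotated transcript start more than 1 kb from the last one kept, numbered from the 5′ end of the gene. Brain cortex and gastrocnemius, the large calf muscle, were compared by chromatin immunoprecipitation and sequencing of H3K4me3, a mark of active or poised promoters, H3K27ac, a mark of active promoters and enhancers, and H3K27me3, the Polycomb mark found at silenced developmental genes.

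All mice carried both PSAPP transgenes, a mutant human presenilin gene and the mutant chimeric mouse and human Mo/HuAPP695swe, and no wild-type mouse was included. Neither the labels nor the methods name the promoter that drives the transgenes. They received a modified AIN-93 diet at 11.2 kcal per day from 6 months of age and were killed at 13 months, and both sexes were mixed within each tissue. Each mark was measured in 9 cortex and 10 gastrocnemius libraries, 57 in all, from 10 mice, of which 9 gave both tissues. The levels below are the deposited read counts of all peaks that overlapped the 2 kb window of a promoter, whole peaks included, divided by the reads in the autosomal peaks of the library in M (mega, as in Mb), and written as RPM. Reads in autosomal peaks ranged from 9.03 to 18.6 M for H3K4me3, from 3.90 to 27 M for H3K27ac and from 2.99 to 18.2 M for H3K27me3, and cortex replicate 9 was the shallowest H3K27ac library.

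The labelled tissues were checked against cell type markers at their main promoters, the ones with the highest H3K4me3. The summed H3K4me3 level of 8 skeletal muscle genes ranged from 130 to 156 RPM in cortex and from 693 to 1610 in gastrocnemius, and Ckm, Tnnt3, Mb and Myh4 had no peak in any cortex library. Most of the cortex sum came from Mylpf, at 117 to 132 RPM there and 140 to 205 in gastrocnemius. The 6 neuronal genes summed to 628 to 759 in cortex and to 4.15 to 23.6 in gastrocnemius, where Snap25, Camk2a, Gad1 and Nefl had no peak. The 3 oligodendrocyte genes summed to 116 to 171 in cortex and to 30.9 to 46.8 in gastrocnemius, and the 3 astrocyte genes to 83.7 to 128 and to 29.5 to 58.3. The astrocyte gene Aqp4 was not lower in gastrocnemius, at 10.1 to 24.2 in cortex and 10.9 to 26.2 in gastrocnemius. The 3 endothelial genes summed to 81.2 to 102 in cortex and to 252 to 430 in gastrocnemius, and all 3 had a peak in every library. The 3 microglial genes, of which Aif1 had no H3K4me3 peak in any library, summed to 17.2 to 38 in cortex and to 0 to 7.93 in gastrocnemius. The 2 Schwann cell genes summed to 72.8 to 80.2 and to 90 to 138, and the 3 adipocyte genes had no H3K4me3 peak in any library. These are bulk tissues, so fewer cells of a type and less of a mark per cell cannot be told apart, and the part of cell composition in the differences below was not tested.

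PGC-1α and PGC-1β do not bind DNA themselves but are recruited by nuclear receptors and by factors such as NRF1, and together they raise the transcription of genes for respiration, fatty acid oxidation and mitochondrial biogenesis. The estrogen-related receptors ERRα, ERRβ and ERRγ are orphan receptors that bind the genes of oxidative phosphorylation, the PPARs are lipid-activated receptors that drive fatty acid oxidation, NRF1 activates nuclear genes of the respiratory chain, and TFAM packages and transcribes mitochondrial DNA. In skeletal muscle Ppargc1a is induced by contraction and fasting through a proximal promoter with a cyclic AMP response element and MEF2 sites, and through an alternative promoter a short way upstream, while a far upstream promoter is known as the source of brain transcripts.

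The bases before 7 of the starts are shown because they are starts of the same gene at which the marks differed between the tissues by different amounts. Each sequence holds the 250 bases before the first curated start of the promoter or, where it had none, before its predicted start. They were read 5′ to 3′ on the strand of the gene from the RefSeq assembly GRCm38.p6, which is mm10, and capitals mark CG dinucleotides. For Ppargc1a they are promoter 1 at chr5:52115854-52116103, promoter 3 at chr5:51567726-51567975 and promoter 4 at chr5:51553922-51554171, all on the minus strand. For Esrrg they are promoter 3 at chr1:187651508-187651757 and promoter 4 at chr1:187661031-187661280, and for Esrrb promoter 2 at chr12:86421394-86421643 and promoter 1 at chr12:86360867-86361116, all on the plus strand.
Ppargc1a promoter 1: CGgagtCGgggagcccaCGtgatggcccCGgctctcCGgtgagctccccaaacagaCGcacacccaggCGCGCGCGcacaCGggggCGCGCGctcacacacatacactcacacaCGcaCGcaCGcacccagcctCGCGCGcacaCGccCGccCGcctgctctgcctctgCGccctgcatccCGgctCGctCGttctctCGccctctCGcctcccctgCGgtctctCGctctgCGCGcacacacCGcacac
Ppargc1a promoter 3: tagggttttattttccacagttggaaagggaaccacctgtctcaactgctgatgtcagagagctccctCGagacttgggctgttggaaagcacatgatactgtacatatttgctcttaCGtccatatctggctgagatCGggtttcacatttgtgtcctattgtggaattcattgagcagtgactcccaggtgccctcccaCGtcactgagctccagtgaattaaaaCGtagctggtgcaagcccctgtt
Ppargc1a promoter 4: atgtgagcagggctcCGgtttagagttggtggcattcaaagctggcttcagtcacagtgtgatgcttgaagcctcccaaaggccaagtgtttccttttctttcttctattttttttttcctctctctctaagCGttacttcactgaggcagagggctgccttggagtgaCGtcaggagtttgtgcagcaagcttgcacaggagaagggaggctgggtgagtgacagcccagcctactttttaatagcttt
Esrrg promoter 3: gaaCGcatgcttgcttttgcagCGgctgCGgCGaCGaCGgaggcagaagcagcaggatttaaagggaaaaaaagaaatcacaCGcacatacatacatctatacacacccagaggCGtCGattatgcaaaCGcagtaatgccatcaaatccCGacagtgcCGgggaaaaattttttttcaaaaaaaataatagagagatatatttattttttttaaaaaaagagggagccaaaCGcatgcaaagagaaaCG
Esrrg promoter 4: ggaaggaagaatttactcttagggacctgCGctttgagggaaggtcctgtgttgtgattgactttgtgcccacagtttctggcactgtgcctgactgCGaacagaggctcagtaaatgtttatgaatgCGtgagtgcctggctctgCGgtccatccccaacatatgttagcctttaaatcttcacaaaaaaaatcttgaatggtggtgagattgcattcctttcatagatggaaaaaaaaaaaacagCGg
Esrrb promoter 2: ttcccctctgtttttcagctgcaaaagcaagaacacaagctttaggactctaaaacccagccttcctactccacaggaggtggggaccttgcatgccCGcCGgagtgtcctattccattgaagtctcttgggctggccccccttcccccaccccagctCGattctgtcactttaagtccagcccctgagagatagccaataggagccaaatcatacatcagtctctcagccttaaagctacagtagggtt
Esrrb promoter 1: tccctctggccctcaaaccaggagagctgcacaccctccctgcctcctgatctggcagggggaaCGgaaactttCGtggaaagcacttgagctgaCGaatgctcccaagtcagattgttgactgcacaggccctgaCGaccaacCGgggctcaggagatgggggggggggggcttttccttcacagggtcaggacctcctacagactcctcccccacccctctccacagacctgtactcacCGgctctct

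The 3 Ppargc1a sequences differed in base composition. Promoter 1 held 34 CG dinucleotides in 250 bases, promoter 3 held 5 and promoter 4 held 3, and the share of G and C was 72.4%, 48% and 48.8%. Over the 2 kb windows, the CG dinucleotides observed against those expected from base composition came to 0.79 at promoter 1, higher than at 95% of all promoters, against 0.25 at promoter 3 and 0.23 at promoter 4, with a median of 0.27 over all 50800 promoters. The same ratio was 0.58 at Esrrg promoter 3 and 0.38 at Esrrg promoter 4, and 0.60 at Esrrb promoter 2 and 0.30 at Esrrb promoter 1.

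Promoter 4 of Ppargc1a held the full cyclic AMP response element TGACGTCA, from 84 to 77 bases before its curated start at position 51553921, a match found on either strand in 1.24% of all 250-base promoter sequences. The ETS site CCGGAAGT, bound by GABP (also called NRF2), stood from 47 to 40 bases before the curated start of Tfam at position 71238044 of chromosome 10, against 2.08% of all promoters. None of the 28 member sequences held the estrogen-related receptor site AAGGTCA (4.41% of all promoters), the NRF1 core CGCATGCG (1.05%), the MEF2 site CTAAAAATA (0.543%) or the first repeat of a DR1 element with the start of its second, AGGTCAAAG (0.344%). A missing match says only that these letters were not in these windows.

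Over the 9 genes, H3K27ac and H3K4me3 were more often higher in gastrocnemius, and the H3K27me3 differences that passed the tests of reads or of peaks at a false discovery rate (FDR) of 0.1 were higher in cortex. Ppargc1a promoter 1, whose H3K27me3 reads could not be tested in that fit because 1 or more libraries had no peak, was higher in gastrocnemius. H3K4me3 reads were tested at the 15 member promoters with a peak in every library. With edgeR's quasi-likelihood test 12 of the 15 passed, 8 higher in gastrocnemius and 4 in cortex, where 78.7% of all 18228 promoters tested passed, and their median log2 fold change (gastrocnemius over cortex) was 0.24 against 0.02 over all promoters. H3K27ac reads could be tested at 11 member promoters, of which 9 passed, 6 higher in gastrocnemius and 3 in cortex, against 73.0% of all 19305 tested, with medians of 0.69 and 0.06. Of all H3K27ac promoters called, 53.0% were higher in gastrocnemius, and 64.0% when total reads replaced TMM factors. H3K27me3 reads were tested at 3 member promoters, all 3 lower in gastrocnemius, against 55.3% of all 3326 called. Of these, Esrrg promoters 1 and 2 hold the same peaks and values (-1.28), so that they are 1 locus, and Esrrb promoter 2 differed by 0.03 within the window (adjusted p = 0.797). Promoters of a gene that share peaks in some or all libraries (Esrrg 1 and 2, Esrrg 5 and 6, Ppara 1 and 2, Nrf1 1 and 2) are each counted in these numbers. Since most promoters passed in each mark, the counts for the members are close to the background, and the sizes and directions below carry the description.

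Over whole gene spans the pattern was similar. H3K4me3 reads passed at 7 of 9 genes, 6 of them higher in gastrocnemius, against 66.7% of all genes tested. H3K27ac reads passed at 6 of 8 genes, all 6 higher in gastrocnemius, against 72.0%, Nrf1 being a call that 16 alternatives ended, and the median log2 fold change was 0.44 against -0.03 over all genes. H3K27me3 reads passed at both genes that could be tested, Esrrb and Esrrg, both lower in gastrocnemius, against 60.2%. Of all genes called, 49% were higher in gastrocnemius for H3K4me3, 48.5% for H3K27ac and 49.8% for H3K27me3. H3K4me3 peaks were broader in gastrocnemius at 8 of the 15 promoters and narrower at 3 by limma, against 76.2% of all promoters called, and 80.7% of all promoters were broader in gastrocnemius, so broadening was the rule across the genome.

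The presence of a peak was compared apart from its reads, by Fisher's exact test on the number of libraries with a peak. For H3K4me3, 3 of 19 member promoters passed, all 3 with more gastrocnemius peaks, against 13.3% of all promoters with a peak. Of all H3K4me3 calls, 47.9% favored gastrocnemius. For H3K27ac, 6 of 25 passed, all 6 with more gastrocnemius peaks, against 18.5%, and 38.4% of all calls favored gastrocnemius. For H3K27me3, 10 of 15 passed, all 10 with more cortex peaks, against 22.3%, and these 10 lay in Esrrb, Esrrg and Ppara and shared peaks among neighbouring starts. The map of marks by promoter shows these gains and losses.

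**Figure D1:**
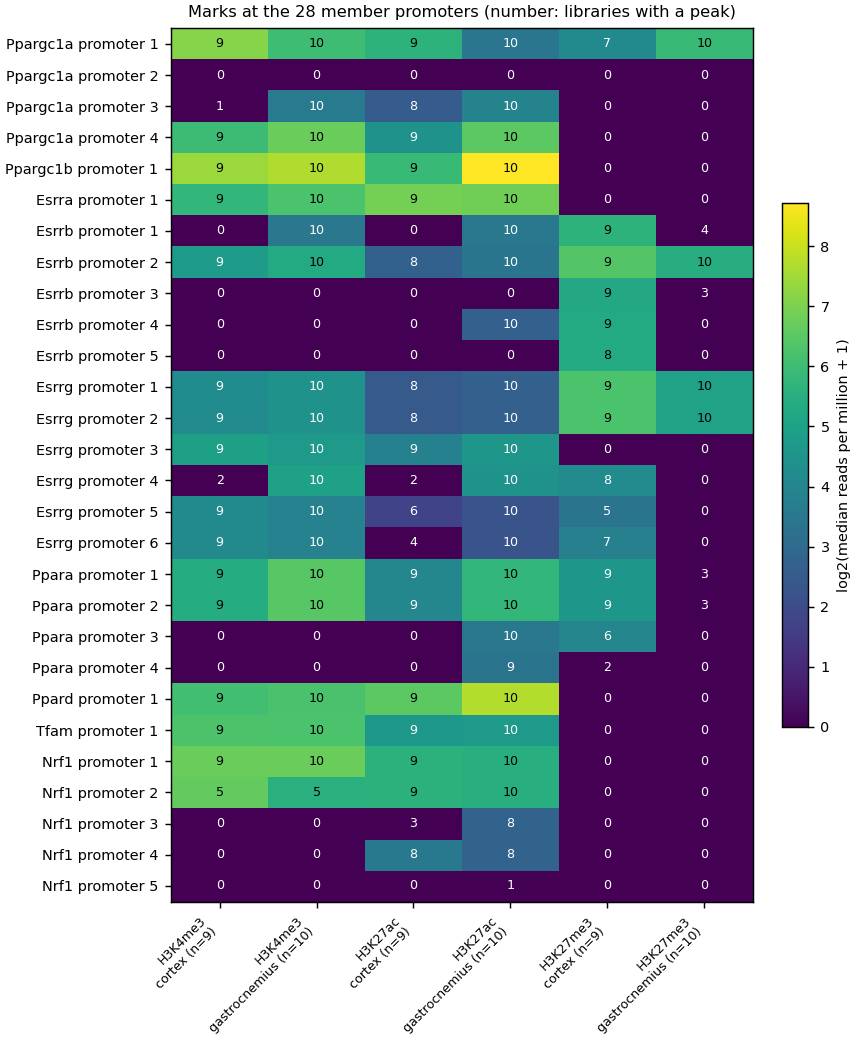
Median RPM (color, log2 scale after adding 1) of the 3 marks at each of the 28 member promoters in cortex (9 libraries) and gastrocnemius (10 libraries), with the number of libraries that had a peak printed in each cell. Esrrb promoter 1 went from 0 to 10 libraries with an H3K4me3 peak and Esrrg promoter 4 from 2 to 10, while H3K27me3 at Esrrb promoter 4 went from 9 to 0.

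At Ppargc1a, which encodes PGC-1α, both active marks were found at promoters 1 and 4 in every library, and their balance differed between the 2 tissues. The gene spans 662 kb of chromosome 5 (51454249 to 52115853, minus strand), with promoter 1 at its far 5′ end and promoter 4, from which the canonical muscle transcript starts, 562 kb downstream. At promoter 1 the H3K4me3 level ranged from 124 to 155 RPM in cortex (median 141) and from 55.2 to 77.2 in gastrocnemius (median 63.7). Every cortex library was above every gastrocnemius library, with a log2 fold change of -1.09 ± 0.06 (SE, edgeR adjusted p = 2.98e-12), larger in size than that of 83.5% of the promoters tested. H3K27ac there ranged from 31.8 to 53.5 in cortex (median 49.1) and from 7.17 to 11.3 in gastrocnemius (median 9.65), again without overlap, a log2 fold change of -2.45 ± 0.11 (adjusted p = 2.21e-13). With only the reads inside the 2 kb window the log2 fold changes were -0.46 for H3K4me3 and -1.23 for H3K27ac, and both passed (adjusted p = 6.53e-05 and 3.05e-10).

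H3K27me3 at promoter 1 went the other way. It had a peak in 7 of 9 cortex libraries, where the level ranged from 0 to 23.8 RPM with a median of 16.9, and in 10 of 10 gastrocnemius libraries, where it ranged from 40.3 to 69 with a median of 57.4. The number of libraries with a peak did not pass (Fisher's exact test, adjusted p = 0.445), and the levels, with means of 14.5 ± 9.28 and 55.4 ± 9.44 (SD), did not overlap. The difference of 40.9 RPM was 5.56 RPM when only reads inside the 2 kb window were counted, and both are given as descriptions chosen after the values were seen. All 10 gastrocnemius libraries and 7 cortex libraries thus had all 3 marks at this promoter, in peaks that need not come from the same cells.

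At promoter 4 both active marks were higher in gastrocnemius, and H3K27me3 had no peak in any library. H3K4me3 ranged from 55.5 to 73.2 RPM in cortex (median 62.3) and from 93.9 to 126 in gastrocnemius (median 104). The groups did not overlap, and the log2 fold change was 0.79 ± 0.07 (adjusted p = 9.29e-10). H3K27ac ranged from 19 to 29.5 in cortex (median 20.6) and from 49.9 to 147 in gastrocnemius (median 90.4), a log2 fold change of 1.90 ± 0.21 (adjusted p = 1.56e-07). The acetylated stretch was longer in muscle, with a median of 23.7 kb against 5.2 kb, and when only the share of each peak inside the 2 kb window was counted the H3K27ac difference shrank to 0.18 (adjusted p = 0.0827) while that of H3K4me3 stayed at 0.66 (adjusted p = 2.77e-06). In gastrocnemius the summed length ran from 10.4 to 38.2 kb, so the libraries differed among themselves in how far acetylation extended.

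Promoter 3, a short way upstream of promoter 4, is the alternative muscle promoter. It had an H3K4me3 peak in 1 of 9 cortex libraries, at 2.43 RPM, and in 10 of 10 gastrocnemius libraries, at 6.6 to 18.8 with a median of 10.7 (Fisher's exact test, adjusted p = 0.00148). H3K27ac was found there in 8 of 9 cortex libraries, at up to 6.21 RPM, and in all gastrocnemius libraries, at 6.61 to 24.2. The only cortex library without it was replicate 9, the shallowest. Promoter 2, known only from a predicted transcript, had no peak of any mark in any library.

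**Figure D2:**
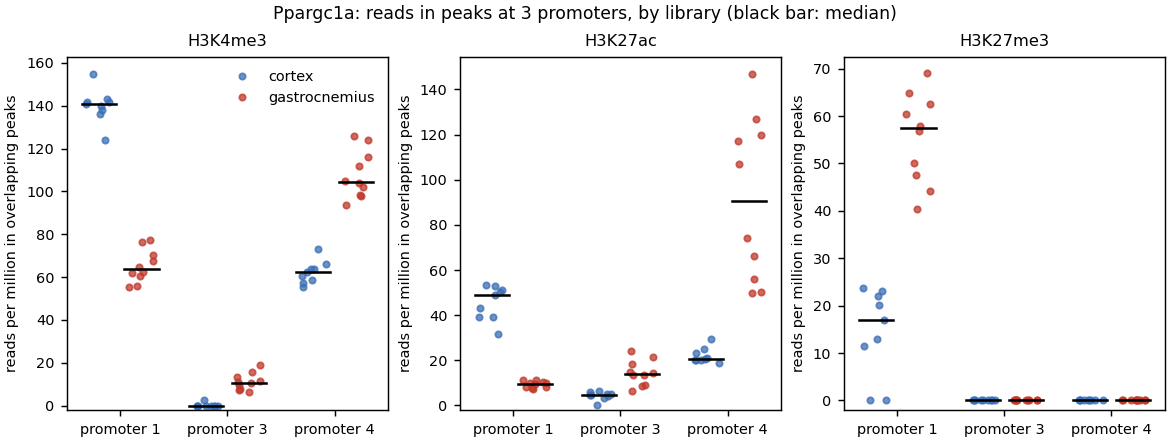
RPM in the peaks that overlap Ppargc1a promoters 1, 3 and 4, each point a library, for H3K4me3, H3K27ac and H3K27me3 in cortex (blue, 9 libraries) and gastrocnemius (red, 10 libraries), with black bars at the medians. Promoter 1 was higher in cortex for H3K4me3 (medians 141 and 63.7) and H3K27ac and lower for H3K27me3, and promoter 4 was higher in gastrocnemius (medians 62.3 and 104 for H3K4me3).

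The balance between the 2 main starts was read within each library, where the scaling to library totals cancels but the length of the peaks counted does not. It is a description chosen after the values were seen and therefore given without a test. Of the H3K4me3 reads at promoters 1 and 4 together, promoter 4 took 27.4 to 35% in cortex (median 31%) and 57.1 to 67.2% in gastrocnemius (median 61.7%). The log2 ratio of promoter 4 to promoter 1 was -1.17 ± 0.18 (SD) in cortex and 0.73 ± 0.21 in gastrocnemius, a difference of 1.90, and it was higher in gastrocnemius in 9 of 9 mice with both tissues, by 1.56 to 2.19. For H3K27ac the share of promoter 4 went from 27.8 to 42.8% in cortex to 81.5 to 94.3% in gastrocnemius. The log2 ratio differed by 4.24 and was higher in gastrocnemius in 9 of 9 mice, and it differed by 1.39 when only reads inside the 2 kb windows were counted, against 1.12 for H3K4me3. Over the whole gene, all of its peaks included, H3K4me3 did not pass, at 173 to 192 RPM in cortex and 151 to 224 in gastrocnemius (log2 fold change 0.03 ± 0.07, adjusted p = 0.702), while H3K27ac was higher in gastrocnemius by 0.41 ± 0.11 (adjusted p = 0.00178), with overlapping groups.

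Inside the gene, away from its promoters, 16 H3K27ac regions were present in at least 3 libraries of a tissue. By Fisher's exact test 10 of them had more cortex peaks, 4 more gastrocnemius peaks and 2 passed in neither direction, where 47.4% of all 49768 regions passed and 32.8% of those favored gastrocnemius. Of the 10 cortex regions, 6 lay within 132 kb downstream of promoter 1, and 2 of these (chr5:52014001-52017800 and chr5:52049601-52053000) had a peak in 9 of 9 cortex and 0 of 10 gastrocnemius libraries. The gastrocnemius region found in most libraries, chr5:51893401-51905400, lay 216 kb downstream of promoter 1 and had a peak in 10 of 10 gastrocnemius and 2 of 9 cortex libraries (adjusted p = 0.00278, Fisher's exact test).

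**Figure D3:**
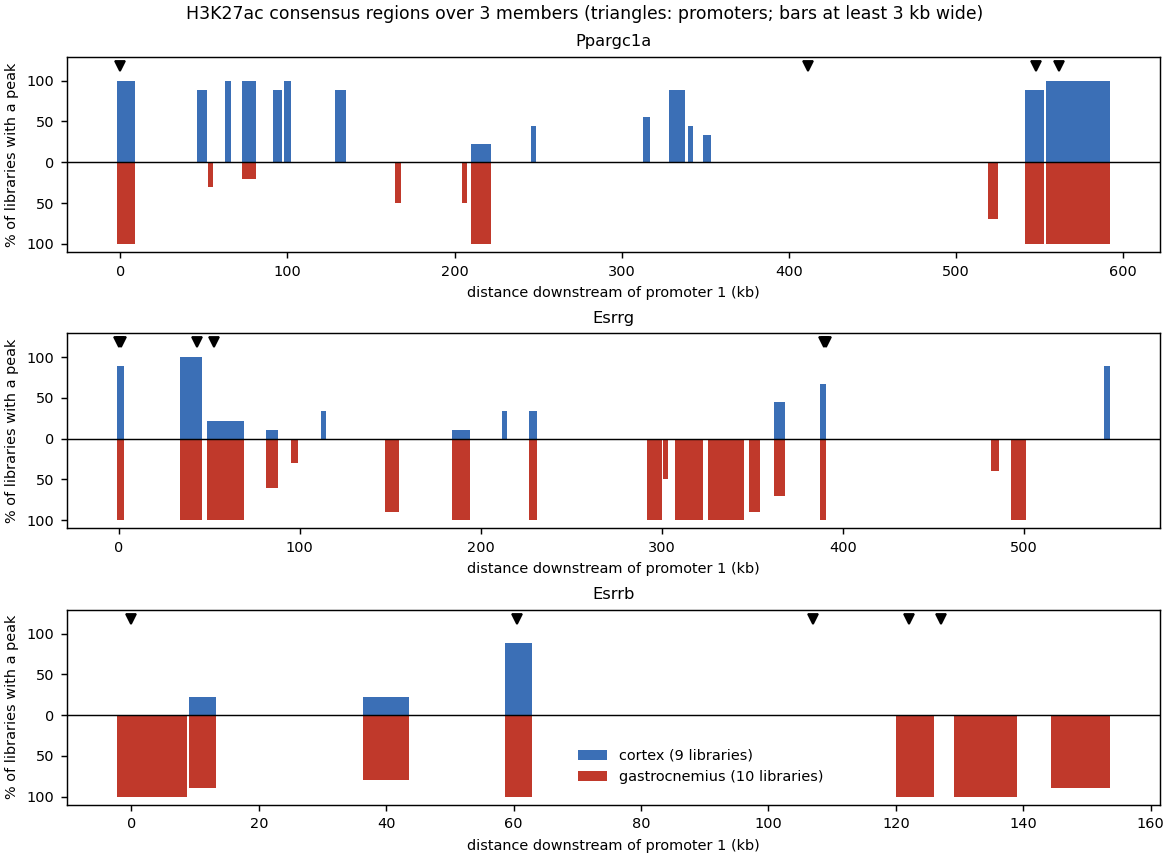
H3K27ac regions along Ppargc1a, Esrrg and Esrrb by distance downstream of promoter 1 in kb, with the percent of cortex libraries with a peak drawn upward (blue, of 9) and of gastrocnemius libraries downward (red, of 10). Triangles mark promoters, and bars are drawn at least 3 kb wide. Cortex regions gathered downstream of Ppargc1a promoter 1, and 10 gastrocnemius regions lay outside promoters in Esrrg against 1 cortex region.

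Ppargc1b, which encodes PGC-1β, carried both active marks in every library and no H3K27me3. H3K4me3 at its single promoter ranged from 155 to 179 RPM in cortex (median 169) and from 187 to 246 in gastrocnemius (median 206), without overlap (log2 fold change 0.33 ± 0.05, adjusted p = 2.05e-06). H3K27ac ranged from 46 to 94.9 in cortex (median 58.3) and from 83.5 to 529 in gastrocnemius (median 421), a log2 fold change of 2.38 ± 0.29 (adjusted p = 5.58e-07), larger in size than that of 93.8% of promoters. In gastrocnemius replicates 1, 2, 3, 4, 6, 7 and 10 the acetylated peaks at the promoter were 95.0 to 107 kb long, close to the whole 109 kb gene. In gastrocnemius replicates 5, 8 and 9 they were 11.8, 28.2 and 30.2 kb long, and replicate 5, at 83.5 RPM, overlapped the cortex libraries, whose lengths ran from 5.2 to 23.2 kb.

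The difference at the Ppargc1b promoter depended on counting whole peaks. With only the reads inside the 2 kb window the log2 fold changes were -0.25 for H3K27ac (adjusted p = 0.28) and -0.10 for H3K4me3 (adjusted p = 0.301), so neither call held and the direction turned. Over the gene span, where every peak counts by its overlap, H3K27ac was 180 to 316 RPM in cortex (median 220) and 368 to 525 in gastrocnemius (median 442), without overlap, a log2 fold change of 0.94 ± 0.11 (adjusted p = 6.11e-08). The acetylated share of the span rose from a median of 78.6% to 94.5%, and that of H3K4me3 from 3.44% to 18.6%. All of these promoter peaks also covered the starts of Mir378a, the microRNA gene inside Ppargc1b, and of the predicted gene Gm52354, so their signal cannot be told apart.

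**Figure D4:**
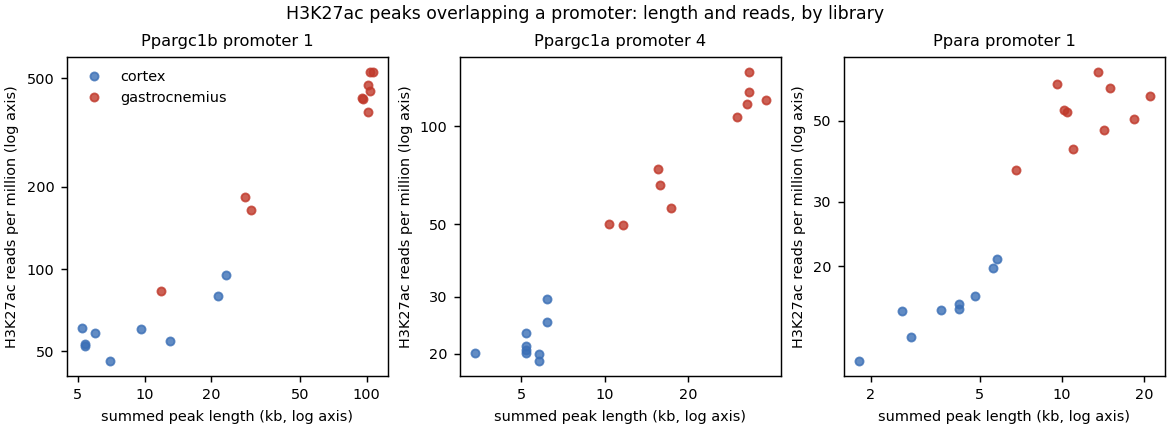
H3K27ac RPM (log axis) against the summed length in kb (log axis) of the H3K27ac peaks that overlap Ppargc1b promoter 1, Ppargc1a promoter 4 and Ppara promoter 1, each point a library, cortex in blue (9) and gastrocnemius in red (10). Gastrocnemius libraries had longer peaks and more reads at Ppargc1a promoter 4 and Ppara promoter 1 than every cortex library, and at Ppargc1b 3 gastrocnemius libraries with stretches of 11.8 to 30.2 kb lay apart from the others at 95.0 to 107 kb.

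Esrra encodes ERRα, the main estrogen-related receptor partner of PGC-1α, and lies on chromosome 19 (6910977 to 6922048, minus strand). H3K4me3 ranged from 48.3 to 58 RPM in cortex (median 54.2) and from 60.3 to 80.8 in gastrocnemius (median 75.6), without overlap (log2 fold change 0.47 ± 0.06, adjusted p = 3.78e-07). The median peak widened from 4.4 to 8.8 kb, and within the 2 kb window the difference was -0.07 (adjusted p = 0.672). These H3K4me3 peaks also covered the start of Catsperz in 4 of 9 cortex and 9 of 10 gastrocnemius libraries. In 6 gastrocnemius libraries they covered that of the predicted gene Gm46646. Over the gene span H3K4me3 was higher in gastrocnemius by 0.86 ± 0.13, without overlap (edgeR adjusted p = 5.02e-06). H3K27ac did not pass (log2 fold change -0.14 ± 0.17, adjusted p = 0.496), at 49.4 to 155 in cortex and 104 to 120 in gastrocnemius. The acetylated peak was about as long in both tissues, with medians of 24.2 and 24.4 kb, and in most libraries also covered Prdx5, Trmt112 and Catsperz.

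Esrrb, which encodes ERRβ, had both active marks in gastrocnemius at a start where no cortex library had them, and less H3K27me3 over the gene. The gene covers 161 kb of chromosome 12 (86361117 to 86521628, plus strand). Promoter 1, its curated 5′-most start at position 86361117, had neither H3K4me3 nor H3K27ac in any cortex library, while all 10 gastrocnemius libraries had H3K4me3, at 8.76 to 12.4 RPM (median 9.92), and H3K27ac, at 7.97 to 16.8 (median 10.2). The adjusted p-values of Fisher's exact test were 0.000178 and 0.00015. H3K27me3 was found there in 9 of 9 cortex libraries, at 21.3 to 88.4, and in 4 of 10 gastrocnemius libraries, at up to 40.4 (adjusted p = 0.0515, Fisher's exact test), a call that was lost when any of gastrocnemius replicates 2, 3, 6, 7, 9 and 10, each without a peak, was left out. These peaks also covered the start of the predicted gene Gm40483.

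Promoter 2 of Esrrb, 60.5 kb downstream, had the highest H3K4me3 of the gene, at 20.2 to 31 RPM in cortex and 32.5 to 51.9 in gastrocnemius (log2 fold change 0.62 ± 0.10, adjusted p = 1.97e-05), without overlap. Its H3K27me3 was lower in gastrocnemius, at 15 to 85.7 (median 42.6) against 66.5 to 107 in cortex (median 82), with overlapping groups (log2 fold change -0.95 ± 0.22, adjusted p = 0.00104), and the difference was 0.03 within the 2 kb window (adjusted p = 0.797). All 3 marks were found at promoter 2 in 8 of 9 cortex and 10 of 10 gastrocnemius libraries. The predicted promoters 3, 4 and 5 had H3K27me3 in 9, 9 and 8 of 9 cortex libraries and in 3, 0 and 0 of 10 gastrocnemius libraries (adjusted p = 0.0197, 0.000261 and 0.00148, Fisher's exact test), none had H3K4me3, and promoter 4 had H3K27ac in 0 of 9 and 10 of 10.

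Over the Esrrb span H3K27me3 ranged from 433 to 536 RPM in cortex (median 499) and from 142 to 328 in gastrocnemius (median 185), without overlap (log2 fold change -1.28 ± 0.12, adjusted p = 1.93e-08). It covered a median of 69.6% of the gene in cortex and 34.4% in gastrocnemius. H3K4me3 over the span was higher in gastrocnemius by 0.93 ± 0.12 (adjusted p = 2.18e-07). H3K27ac went from 0 to 11.1 RPM in cortex to 31.4 to 67 in gastrocnemius, and 5 of 5 regions outside the promoters had more gastrocnemius peaks, where 47.4% of all regions passed and 32.8% of those favored gastrocnemius. Of these, chr12:86490201-86496000 and chr12:86496401-86500400 had a peak in 10 of 10 gastrocnemius and 0 of 9 cortex libraries.

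Esrrg, which encodes ERRγ, a receptor of oxidative muscle fibers, heart and brain, had a larger change of H3K27me3 over its gene span than Esrrb, the other member with this mark in every library. The gene covers 606 kb of chromosome 1 (187608510 to 188214885, plus strand). Over the span H3K27me3 ranged from 80.9 to 595 RPM in cortex (median 415) and from 6.14 to 21.5 in gastrocnemius (median 14.6), a log2 fold change of -4.70 ± 0.36 (adjusted p = 1.86e-09), larger in size than that of 99.8% of genes tested. It lay in 3 to 29 peaks per cortex library and in 1 peak per gastrocnemius library. H3K27ac over the span went the other way, from 15.6 to 43.8 in cortex to 125 to 220 in gastrocnemius (log2 fold change 2.56 ± 0.17, adjusted p = 8.27e-12), and H3K4me3 rose by 0.87 ± 0.09 (adjusted p = 2.01e-08), with no overlap for either mark.

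Active marks were gained at promoter 4 of Esrrg, a predicted start at position 187661281, 9.52 kb downstream of promoter 3. H3K4me3 had a peak there in 2 of 9 cortex libraries, at 2.58 and 3.68 RPM, and in 10 of 10 gastrocnemius libraries, at 19.6 to 39.3 with a median of 30.5 (Fisher's exact test, adjusted p = 0.00742). H3K27ac had a peak in 2 of 9 cortex libraries, at 3.24 and 3.43, and in all gastrocnemius libraries, at 12.3 to 37.6 (adjusted p = 0.00549, Fisher's exact test). H3K27me3 had a peak in 8 of 9 cortex libraries, at up to 27.5, and in 0 of 10 gastrocnemius libraries (adjusted p = 0.00148, Fisher's exact test). In the libraries without a run number in their deposited names, 7 from cortex and 6 from gastrocnemius, the H3K27ac call at promoter 4 had an adjusted p of 0.119. The H3K4me3 call ended when peaks had to cover at least 50% of the window (adjusted p = 1, Fisher's exact test).

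At promoter 3, the main Esrrg start in both tissues together, H3K4me3 was slightly lower in gastrocnemius, at 18.5 to 31.8 against 25.7 to 33 in cortex (log2 fold change -0.22 ± 0.09, adjusted p = 0.0253), and H3K27ac was higher, at 12.7 to 30.2 against 9.22 to 13.8 (0.69 ± 0.12, adjusted p = 6.45e-05). Both groups overlapped, and neither call held with reads inside the window alone (adjusted p = 0.329 and 0.463). Promoter 3 had no H3K27me3 in any library. Promoters 1 and 2 share their H3K27me3 peaks and had all 3 marks in 8 of 9 cortex and 10 of 10 gastrocnemius libraries, with H3K27me3 at 53.7 to 80.9 in cortex and 18.4 to 43.1 in gastrocnemius (log2 fold change -1.28 ± 0.16, adjusted p = 1.19e-06). Within the window the H3K27me3 difference was -0.38 and -0.52 (adjusted p = 0.000384 and 6.46e-05). Their H3K4me3 differed by 0.24 and 0.28 (adjusted p = 0.113 and 0.0741) and, within the window, by 0.81 and 0.91 (adjusted p = 7.07e-05 and 0.000152). The promoter 2 call ended in 12 alternatives, among them libraries without a run number (adjusted p = 0.109) and leaving out cortex replicate 1, 3, 4, 5, 6 or 8 or gastrocnemius replicate 1, 2, 6 or 7.

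Promoters 5 and 6 of Esrrg had the same H3K4me3 levels in shared peaks. H3K4me3 was lower in gastrocnemius by 0.25 ± 0.11 on the log2 scale at both (adjusted p = 0.052), a call that the fit with mouse as a block did not keep (adjusted p = 0.104). Within the window the difference turned to 0.13 at promoter 5 (adjusted p = 0.412). At promoter 6 it was -0.52 and was not called (adjusted p = 0.282). Both stood at -0.13 when only libraries lacking a run number were used (adjusted p = 0.363). H3K27me3 was found at them in 5 and 7 of 9 cortex libraries and in none from gastrocnemius (adjusted p = 0.0515 and 0.0061, Fisher's exact test). The promoter 5 call ended in 15 alternatives, among them leaving out any gastrocnemius library or cortex replicate 6 or 9, and in libraries without a run number the adjusted p was 0.47 at promoter 5 and 0.109 at promoter 6. H3K27ac at promoter 6 was found in 4 of 9 cortex and 10 of 10 gastrocnemius libraries (adjusted p = 0.0585, Fisher's exact test), a call that 18 alternatives ended, among them leaving out any gastrocnemius library or cortex replicate 1, 3, 5, 8 or 9. Outside the promoters 10 of 17 H3K27ac regions of Esrrg had more gastrocnemius peaks and 1 more cortex peaks, against the same 47.4% of all regions called and 32.8% of calls favoring gastrocnemius. The regions chr1:187900401-187908800, chr1:187916001-187931200, chr1:187934201-187945400 and chr1:187945801-187954200, 296 to 341 kb downstream of promoter 1, each had a peak in 10 of 10 gastrocnemius and 0 of 9 cortex libraries.

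Ppara encodes PPARα, the fasting-responsive receptor of fatty acid oxidation, and lies on chromosome 15 (85734910 to 85806851, plus strand). Its promoters 1 and 2 stand 1.18 kb apart and share their peaks. H3K4me3 ranged from 37.2 to 47.6 RPM in cortex (median 41) and from 75 to 95.1 in gastrocnemius (median 87.4), without overlap (log2 fold change 1.07 ± 0.06, adjusted p = 1.82e-12). H3K27ac ranged from 11 to 20.9 in cortex (median 15.3) and from 36.6 to 68.1 in gastrocnemius (median 53.1), also without overlap (1.59 ± 0.13, adjusted p = 1.16e-09). Within the window the differences at promoter 1 were smaller, 0.52 and 0.41, and both passed (adjusted p = 0.000333 and 0.00202).

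H3K27me3 was present at promoters 1 and 2 of Ppara in 9 of 9 cortex libraries, at 16.9 to 36.1 RPM, and in 3 of 10 gastrocnemius libraries, at 18.8 to 38.4 (Fisher's exact test, adjusted p = 0.0197). The downstream predicted promoters 3 and 4 had H3K27ac in 0 of 9 cortex libraries and in 10 and 9 of 10 gastrocnemius libraries (adjusted p = 0.00015 and 0.00112, Fisher's exact test) without H3K4me3. Over the gene, acetylation covered a median of 12.2% of the span in cortex and 59.1% in gastrocnemius, and H3K27ac rose from 14 to 42.4 RPM to 69.9 to 149 (log2 fold change 2.11 ± 0.20, adjusted p = 3.52e-09).

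Ppard encodes PPARδ, the PPAR that prevails in muscle, and lies on chromosome 17 (28232754 to 28301469, plus strand). Its H3K4me3 level overlapped between the tissues, at 62 to 78.8 RPM in cortex and 60.1 to 85.3 in gastrocnemius (log2 fold change 0.11 ± 0.06, adjusted p = 0.0837), and the fit with mouse as a block did not call it (adjusted p = 0.181). Leaving out any of 13 single libraries also ended that call, and within the window the difference was -0.07 (adjusted p = 0.79). H3K27ac was higher in gastrocnemius without overlap, at 168 to 243 against 46.1 to 121 (1.11 ± 0.14, adjusted p = 1.09e-06), and by 0.41 within the window (adjusted p = 0.000203). Over the gene span H3K4me3 was higher in gastrocnemius without overlap, at 78.1 to 114 against 44.4 to 74.1 (0.69 ± 0.10, adjusted p = 1.03e-06), as was H3K27ac, at 238 to 278 against 164 to 214 (0.46 ± 0.05, adjusted p = 5.55e-08). No library had H3K27me3 at Ppard.

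The transcription factor genes Tfam and Nrf1 did not pass for H3K4me3 at their main promoters. Tfam lies on chromosome 10 (71225468 to 71238328, minus strand), and its H3K4me3 ranged from 73 to 83.8 RPM in cortex (median 76.5) and from 65.9 to 83.7 in gastrocnemius (median 74.7), a log2 fold change of -0.04 ± 0.03 (adjusted p = 0.242) larger in size than that of 10.8% of promoters. Its H3K27ac ranged from 22.9 to 26.7 and from 23.7 to 31.2 (-0.06 ± 0.06, adjusted p = 0.334). Within the 2 kb window both passed as lower in gastrocnemius, at log2 fold changes of -0.22 and -0.48 (adjusted p = 0.0472 and 0.00351), and the H3K4me3 peaks were wider there, with a median of 3.2 against 1.8 kb. With total reads in place of TMM factors the H3K27ac difference at Tfam was 0.10 (adjusted p = 0.12).

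Nrf1 lies on chromosome 6 (30047985 to 30153458, plus strand). H3K4me3 at promoter 1 ranged from 98 to 113 RPM in cortex (median 104) and from 90.9 to 112 in gastrocnemius (median 105), a log2 fold change of -0.04 ± 0.03 (adjusted p = 0.302). H3K27ac was slightly lower in gastrocnemius, at 35.2 to 49 against 34.7 to 52.5, with overlapping groups (-0.25 ± 0.08, adjusted p = 0.00784), a call lost within the window (-0.09, adjusted p = 0.447) and with total reads in place of TMM factors (-0.09, adjusted p = 0.359). Promoter 2, 3.82 kb downstream, had an H3K4me3 peak in 5 of 9 cortex and 5 of 10 gastrocnemius libraries, each of them also the peak of promoter 1, and the downstream promoters 3, 4 and 5 had no H3K4me3. Over the span of Nrf1, H3K4me3 was at 66.9 to 78.8 RPM in cortex and 50.5 to 73.5 in gastrocnemius, overlapping (-0.22 ± 0.07, adjusted p = 0.00575), a call lost with 5 kb added on each side (adjusted p = 0.181) and with whole counts (adjusted p = 0.143). H3K27ac over the span was at 47.4 to 58.4 and 47.2 to 83.6, also overlapping (0.20 ± 0.11, adjusted p = 0.0946), and with whole counts the difference was 0.03 (adjusted p = 0.787). Neither Tfam nor Nrf1 had H3K27me3 in any library.

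**Figure D5:**
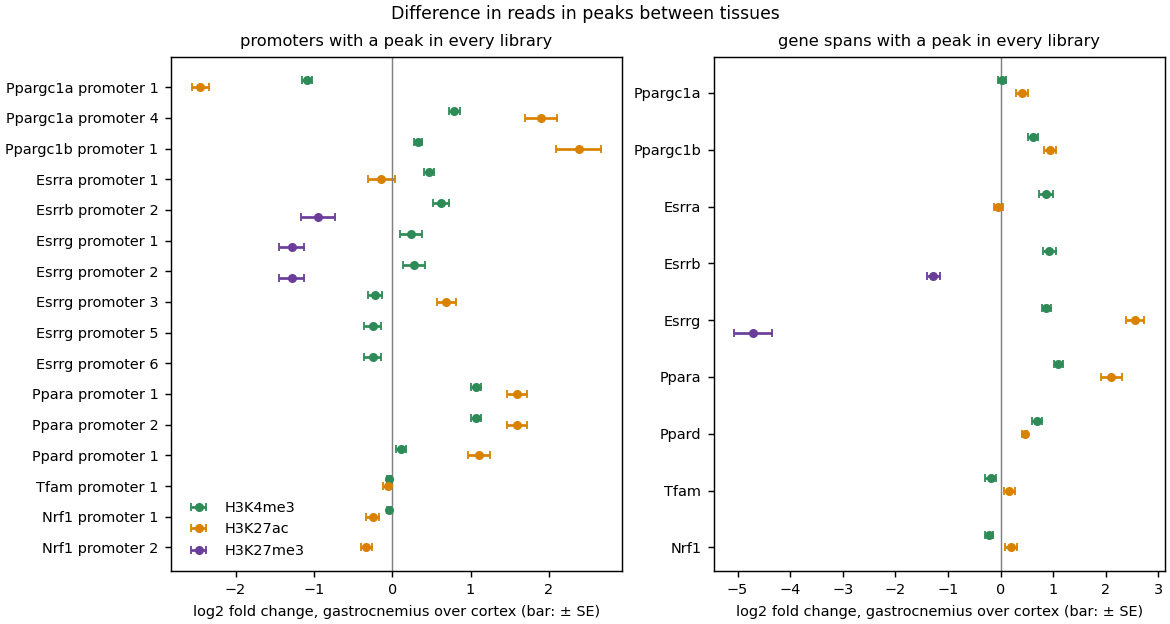
Log2 fold change of reads in peaks, gastrocnemius over cortex, with bars of ± SE, at the member promoters (left) and gene spans (right) that had a peak in every library of the mark. Ppargc1a promoters 1 and 4 lay on opposite sides of 0 for both active marks, Tfam promoter 1 lay near 0 for both, and Esrrg had the lowest H3K27me3 value over a gene, -4.70 ± 0.36.

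Levels of different members were compared per kb of peak. In cortex the median H3K4me3 at the main promoters fell in the order Tfam (41 RPM per kb), Ppargc1b (35.3), Nrf1 (24.5), Ppargc1a promoter 1 (22.9), Ppard (15.2), Ppara (14.3), Esrrb promoter 2 (13.1), Esrra (12.5) and Esrrg promoter 3 (8.13). In gastrocnemius the order was Ppargc1b (24.4), Tfam (22.5), Nrf1 (21.1), Ppara (14.2), Ppargc1a promoter 1 (13.4), Esrrb promoter 2 (13.4), Ppard (11.5), Esrra (8.66) and Esrrg promoter 3 (6.11). Each neighbour in both orders overlapped the next over its libraries. By H3K27ac per kb, Ppargc1a promoter 1 stood at rank 4 in cortex (6.25) and the last in gastrocnemius (2.17), where it overlapped Esrrg promoter 3 (2.49). Promoter 1 stands for Ppargc1a here by its H3K4me3 over both tissues, and in gastrocnemius promoter 4 was higher, at 17.7 against 13.4 for H3K4me3 and 4.03 against 2.17 for H3K27ac. Promoter 3 stands for Esrrg by the same rule, and its promoters 1, 4 and 5 were higher for H3K4me3 in gastrocnemius (11.4, 8.46 and 8.67 against 6.11) and promoter 5 in cortex (9.86 against 8.13).

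The 5 genes most like Ppargc1a at their main promoters all had lower median H3K4me3 and H3K27ac and higher median H3K27me3 in gastrocnemius. Likeness was Pearson's r of log2(RPM + 1), centered within each mark, over 57 libraries that share mice and tissues, and is given as a description. Because the genes were chosen by this likeness over both tissues, their shared directions largely follow from the choice. It was 0.92 for Nptxr, a receptor for neuronal pentraxins, 0.886 for Msi1, an RNA-binding protein of neural progenitors, 0.884 for Zfp575, 0.88 for the protocadherin Pcdh7 and 0.874 for Gm52814. Nptxr went from a median H3K4me3 of 85.5 RPM to 17 and from a median H3K27me3 of 13.3 to 85.2. For Ppargc1b, apart from Gm52354 and Mir378a, which share its peaks (r = 1), it was 0.951 for Zfp395, 0.948 for Gm46060 and 0.944 for Polr1a, a subunit of RNA polymerase I.

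Other genes of the pathway, from lists set by name, were read at their main promoters. Of 20 coactivator partners and upstream regulators, H3K4me3 was higher in gastrocnemius at 14, higher in cortex at 2 and not called at 4 (median log2 fold change 0.19 against 0.02 over all promoters), where 78.7% of all promoters passed. H3K27ac was tested at 18, with 12 higher, 2 lower and 4 not called (medians 0.41 and 0.06), where 73.0% of all passed. The same shares, and 22.3% for the presence of H3K27me3, are the background of the lists that follow. Prkag3, an AMPK subunit of fast muscle fibers, had H3K4me3 of 2.73 to 5.16 RPM in cortex and 28.5 to 107 in gastrocnemius (log2 fold change 3.97 ± 0.22, adjusted p = 1.94e-12). Camk4, a kinase upstream of CREB, went the other way, from 77.8 to 95.6 to 10.6 to 16 (-2.75 ± 0.07, adjusted p = 7.36e-18). Rxra, the partner of the PPARs, rose for H3K4me3 by 1.44 ± 0.08 and for H3K27ac by 3.92 ± 0.66, and Perm1, a muscle regulator downstream of PGC-1, by 1.43 ± 0.17 and 1.66 ± 0.20 (adjusted p = 6.77e-13, 3.15e-05, 1.52e-07 and 4.96e-07). The H3K27ac levels of Rxra overlapped, at 9.45 to 53.7 RPM in cortex and 25.3 to 583 in gastrocnemius, with medians of 14.6 and 395. Within the window these differences were smaller, at 2.38 for Prkag3, -1.75 for Camk4, 0.60 and 0.94 for Rxra and 0.42 for H3K4me3 of Perm1, and H3K27ac of Perm1 was not called (-0.06, adjusted p = 0.645). Lpin1 and Prkaa2 rose for H3K27ac by 1.62 ± 0.18 and 1.51 ± 0.13 (edgeR adjusted p = 1.47e-07 and 2.59e-09). Within the window Lpin1 stayed higher, by 0.38 (edgeR adjusted p = 4.28e-04). Prkaa2 turned there to -0.87 and was called lower in gastrocnemius (edgeR adjusted p = 2.12e-06).

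Among 22 genes of fatty acid oxidation and PPAR targets, H3K4me3 was tested at 18, of which 17 were higher in gastrocnemius and 1 in cortex (medians 0.72 and 0.02), and H3K27ac at 19, of which 17 were higher in gastrocnemius and 2 were not called (medians 1.08 and 0.06). Hadha and Hadhb had the same values in both marks, from shared peaks, and count as 2 genes here. H3K27me3 passed Fisher's exact test at 5 of the 7 with a peak, all with more cortex peaks. Plin5, a protein of the lipid droplet surface, had H3K4me3 of 3.2 to 6.16 RPM in cortex and 10.2 to 143.5 in gastrocnemius (3.92 ± 0.37, adjusted p = 6.89e-09). This was the largest log2 fold change in that mark among the 18 tested. The 18 leave out genes without a peak in every library, 2 of which had no peak in any cortex library. Lpl, which releases fatty acids from circulating lipoproteins, ranged from 36.2 to 55.2 RPM of H3K4me3 in cortex and from 178 to 232 in gastrocnemius (2.15 ± 0.07, adjusted p = 5.34e-16). Ucp3, a mitochondrial carrier of muscle, rose for H3K27ac by 3.02 ± 0.38 (adjusted p = 8.77e-07), and Pdk4, the kinase that shuts off pyruvate oxidation, by 2.67 ± 0.18 (adjusted p = 1.25e-10). Cpt1c, the brain isoform of carnitine palmitoyltransferase, was the gene higher in cortex for H3K4me3, at 57.3 to 83 against 9.34 to 39.1 (-2.0 ± 0.21, adjusted p = 3.34e-08). Within the window the differences of Plin5, Ucp3 and Pdk4 were 1.97, 1.36 and 0.46.

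The third list holds genes that transcribe and replicate mitochondrial DNA. Of 11, H3K4me3 was higher in gastrocnemius at 8, higher in cortex at 2 and not called at 1, with a median log2 fold change of 0.12, and H3K27ac was higher at 4, lower at 4 and not called at 3, with a median of -0.02. Top1mt, the mitochondrial topoisomerase I, was the only one with an H3K27me3 peak, in 0 of 9 cortex and 6 of 10 gastrocnemius libraries (adjusted p = 0.0515, Fisher's exact test). H3K4me3 differed most at Polg2, the accessory subunit of the mitochondrial DNA polymerase (0.55 ± 0.03, adjusted p = 2.08e-13), and at Ssbp1, the mitochondrial single-strand DNA binding protein (0.38 ± 0.04, adjusted p = 1.65e-08). Tfb2m, a transcription factor of mitochondria, had H3K4me3 of 79.5 to 91.6 RPM in cortex and 92.1 to 113 in gastrocnemius (0.31 ± 0.04, adjusted p = 7.43e-07) and a larger H3K27ac difference (2.86 ± 0.21, adjusted p = 2.92e-10). Twnk, the mitochondrial helicase, had H3K27ac of 25.1 to 145.4 RPM in cortex and 27.7 to 336.1 in gastrocnemius, overlapping through 1 gastrocnemius library (1.58 ± 0.39, adjusted p = 0.00136). Polrmt, the mitochondrial RNA polymerase, had H3K27ac of 19.6 to 206.8 RPM in cortex and 18.3 to 37.9 in gastrocnemius, overlapping, with medians of 34 and 24.1 (-1.26 ± 0.37, adjusted p = 0.00517). Cortex replicate 3 alone stood at 206.8, the next cortex library being at 45.6, and without it the difference was -0.59 ± 0.17 (adjusted p = 0.00517). H3K4me3 of Polrmt was higher in gastrocnemius (0.23 ± 0.05, adjusted p = 0.000347). Within the window the H3K4me3 calls of Polg2, Ssbp1, Tfb2m and Polrmt all ended, with Tfb2m turned to -0.24 (adjusted p = 0.105), as did the H3K27ac call of Polrmt, turned to 0.16 (adjusted p = 0.273), while H3K27ac differed by 0.53 at Tfb2m and 0.51 at Twnk. Of 6 mitochondrial antioxidant genes, H3K4me3 was higher in gastrocnemius at 5 and in cortex at 1 (median 0.17), and H3K27ac was higher at 4 and not called at 2 (median 0.38). Cat, which encodes catalase, rose by 0.60 ± 0.04 and 1.08 ± 0.07 (adjusted p = 3.96e-11 and 2.24e-11), and Txn2, a mitochondrial thioredoxin, rose for H3K27ac by 1.10 ± 0.31 (adjusted p = 0.00452), with levels that overlapped. Within the window these calls ended, at -0.18 and 0.02 for Cat (adjusted p = 0.112 and 0.882) and 0.22 for Txn2 (adjusted p = 0.118). Sod2 H3K27ac, higher in gastrocnemius with whole peaks (0.35), turned to -0.55 there (edgeR adjusted p = 0.0105). H3K4me3 turned from 0.23 to -0.30 at Txn2 and from 0.13 to -0.29 at Prdx5 (edgeR adjusted p = 0.0466 and 0.0217). Both calls of Prdx3 ended (edgeR adjusted p = 0.678 for H3K4me3 and 0.197 for H3K27ac). Its H3K27ac call also ended in libraries without a run number (edgeR adjusted p = 0.149).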

How the data were processed

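H3K4me3, H3K27ac and H3K27me3 were measured by ChIP-seq in cortex and gastrocnemius of PSAPP mice. Per the study's methods the authors aligned paired reads to mm10 with BWA, removed unmapped, duplicate and poorly mapped reads with SAMtools, called peaks in each library with epic2 and excluded 1 cortex sample. The deposited peak lists hold the ChIP read count of each peak, in whole reads, and a score, which served only to rank peaks in an alternative.

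Promoters were RefSeq starts (NM, NR, XM and XR transcripts) with a window of 1 kb either side, and the main promoter of a gene was the one with the highest mean H3K4me3 over both tissues. Counts of promoters with a peak in every library, and counts shared by overlap over gene spans, were tested with edgeR's quasi-likelihood test (edgeR 4.0.16, TMM factors, R 4.3.3) at an FDR of 0.1 over the whole table. Peak width was tested with limma 3.58.1, and the number of libraries with a peak by Fisher's exact test (scipy 1.17.1), all two-sided with Benjamini-Hochberg adjustment. The same tests were checked on simulated data. H3K27ac regions were merged peaks found in at least 3 libraries of a tissue. All members were named, and of each list of other genes up to 4 a mark, those with the largest size of log2 fold change among those called. Top1mt, Hadha and Hadhb were named after their values were seen. The members and lists were chosen with earlier results of these data known.

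Mice were matched through the mouse numbers in the deposited names, and 9 mice gave both tissues. The deviations of cortex and gastrocnemius libraries of a mouse from their group means correlated with medians of 0.02, 0.02 and 0.03 for H3K4me3, H3K27ac and H3K27me3. Some names carry a sequencing run number (2 cortex and 4 gastrocnemius libraries a mark), and within the libraries without one the comparisons were repeated. Sex was not in the labels and was not used. File naming differed by tissue, so processing and tissue cannot be told apart. Alternatives covered normalization, filters, windows, counting, DESeq2 1.42.0, the mouse block and leaving out each library. The sequence at Ppargc1b is not reported here.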

Additional observations from a re-analysis of the deposited data

Results flagged for a closer look

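In 77 groups of libraries, for each member promoter, mark and tissue with a peak in every library, the highest and the lowest library were set against the others, and 2 stood apart by Dixon's test. Chance flags about 1 in 20 groups. H3K27ac at Esrrb promoter 1 was 16.8 RPM in gastrocnemius replicate 6, where the other gastrocnemius libraries lay between 7.97 and 11.2. H3K27ac at Esrrg promoter 3 was 9.22 RPM in cortex replicate 9, where the other cortex libraries lay between 12 and 13.8, and this was the shallowest H3K27ac library, with 3.9 M reads in peaks.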

How the results depend on the processing

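Member promoters and genes were recomputed singly under the alternatives, regions as counts, and of the other lists the genes with the largest differences. Counting only the reads inside the 2 kb window moved most member values, and turned the sign of H3K4me3 at Esrra (-0.07), Esrrg promoter 5 (0.13), Nrf1 promoter 1 (0.06), Ppard (-0.07) and Ppargc1b (-0.10), of H3K27ac at Esrra (0.10), Nrf1 promoter 2 (0.01) and Ppargc1b (-0.25), and of H3K27me3 at Esrrb promoter 2 (0.03). Without TMM factors the H3K27ac difference turned at Esrra (0.02) and Tfam (0.10), and 64.0% of all H3K27ac promoter calls were higher in gastrocnemius, against 53.0% with them. Over gene spans H3K4me3 at Ppargc1a turned with 5 kb added on each side (-0.08), with whole counts (-0.08) and without gastrocnemius replicate 6 (-0.01), and H3K27ac turned at Tfam with 5 kb added (-0.04) and whole counts (-0.22) and at Esrra without gastrocnemius replicate 3 (0.01). The difference in the share of libraries with a peak turned for H3K27ac at Nrf1 promoter 4 with equally many top-scoring peaks (0.02), without the lowest-scoring peaks (0.02) and with 50% of the window covered (0.28), for H3K27ac at Esrrg promoter 2 with 50% covered (-0.09), and for H3K4me3 at Nrf1 promoter 2 in libraries without a run number (0.24). The causes were not tested.

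With curated starts alone fewer promoters were tested, and the calls fell to 1834 for H3K4me3, to 3100 (1 member) for H3K27ac and to 2996 (3 members) for H3K27me3. In libraries without a run number, which are fewer, H3K27me3 calls numbered 2865 (6 members). With uncalled features set to 0 reads more were tested, and 15 member promoters passed for H3K27ac reads, 4688 promoters (7 members) for H3K27me3 reads and 5578 genes (4 members) for H3K27me3 gene reads, Ppargc1a being higher in gastrocnemius in both of these H3K27me3 fits. With equally many top-scoring peaks 44.7% of H3K27ac region calls were higher in gastrocnemius, against 32.8% with all peaks.

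With the mouse as a replicate block, H3K4me3 reads passed at 9 of 15 member promoters (12 without it), Esrrg promoters 5 and 6 and Ppard being lost, H3K4me3 gene reads at 8 of 9 genes, with Tfam gained (-0.23, edgeR adjusted p = 0.0649), and width at 10 of 15. The block changed no other member call.

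Leaving out each library in turn gave 14099 to 14409 promoters (10 to 13 members) for H3K4me3 reads, 13814 to 14495 (9 to 11) for H3K27ac and 1769 to 1890 (3 to 3) for H3K27me3. The calls of peaks numbered 3042 to 3430 (3 to 3), 5762 to 6329 (5 to 6) and 4299 to 5597 (8 to 10), gene reads 10553 to 10848 (7 to 8), 11913 to 12470 (5 to 7) and 2601 to 2759 (2 to 2), width 13459 to 14232 (10 to 12) and regions 20184 to 23649 (28 to 34). The log2 ratio of Ppargc1a promoter 4 to promoter 1 differed by 1.86 to 1.93 for H3K4me3 and 4.15 to 4.36 for H3K27ac, and H3K27me3 at promoter 1 by 39.1 to 42.5 RPM. In libraries without a run number these were 1.83, 4.65 and 44, and inside the window 1.12, 1.39 and 5.56. These 3 results and their alternatives were chosen after seeing the data.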
